A study of Mus musculus with 8 samples.

Results

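The genes that move iron, zinc and copper into, within and out of cells were compared between sorted populations of the mouse small intestinal epithelium. They were chosen by symbol: every gene of the zinc transporter families Slc30a and Slc39a, and 12 genes named singly, Slc11a2, Slc40a1, Slc31a1, Cybrd1, Heph, Tfrc, Fth1, Ftl1, Mt1, Mt2, Atp7a and Atp7b. This gave 37 of the 37620 genes in the tables, with 10 Slc30a genes and 15 Slc39a genes, 1 of which is the pseudogene Slc39a1-ps. RNA was sequenced from 4 libraries of cells without surface CD24 (CD24Neg, numbered 2, 4, 6 and 8) and 4 of cells with intermediate CD24 (CD24Mid, numbered 1, 3, 5 and 7, also called CD24low). Both populations came from the flow cytometer after removal of CD45-positive cells, which are leukocytes, and of cells bound by the Ulex europaeus lectin, which recognises fucosylated glycans. The submitters call the libraries of a cell type biological replicates, and the series concerns intestinal differentiation; the labels state neither strain, age nor gut segment, nor whether animals were pooled. Values below list libraries 2, 4, 6 and 8 for CD24Neg and 1, 3, 5 and 7 for CD24Mid, and fold changes are CD24Neg over CD24Mid.

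Dietary iron enters enterocytes through the brush border after reduction to the ferrous form, is stored in ferritin, and leaves through the basolateral exporter ferroportin, helped by a copper-containing oxidase. Iron-poor cells let iron regulatory proteins bind a hairpin, the iron responsive element, which blocks translation when it lies at the start of an mRNA and protects the mRNA from decay when it lies in the 3′ untranslated region. Slc39a proteins bring zinc into the cytosol, Slc30a proteins take it out of the cytosol into vesicles or out of the cell, and metallothioneins hold zinc and copper under the control of the zinc sensor Mtf1.

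The iron responsive elements are shown because the members in which a search found them fall on both sides of the comparison. The search took an unpaired C, 5 bases, the loop letters CAGTG followed by A, C or T, and 5 bases that pair with the first 5, G to T pairs allowed, in the sense strand of GENCODE M21 transcripts of GRCm38. Sites of 29 bases are written 5′ to 3′ as DNA, with the loop in capitals, from Fth1 on chromosome 19, Ftl1 on chromosome 7, Slc40a1 on chromosome 1 and Tfrc on chromosome 16.
Fth1, 5′ untranslated region: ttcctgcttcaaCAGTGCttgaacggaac
Ftl1, 5′ untranslated region: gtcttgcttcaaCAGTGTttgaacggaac
Slc40a1, 5′ untranslated region: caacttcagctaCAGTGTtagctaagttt
Tfrc, 3′ untranslated region, site 1: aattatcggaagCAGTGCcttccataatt
Tfrc, 3′ untranslated region, site 2: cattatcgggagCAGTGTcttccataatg
Tfrc, 3′ untranslated region, site 3: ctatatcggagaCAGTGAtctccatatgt
Tfrc, 3′ untranslated region, site 4: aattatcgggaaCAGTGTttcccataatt
Among 22527 coding genes, 23 (0.102%) held such a match in a 5′ untranslated region and 110 (0.488%) in a 3′ untranslated region. No other member and no partner gene listed below matched, which says only that these letters were not found there. The search misses an element whose stem does not pair at all 5 positions, so genes without a match may still carry one.

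Libraries held 11340782 to 18928233 reads unique to 1 gene in CD24Neg and 15473071 to 17537818 in CD24Mid, so that 3 reads, the limit a count of 0 allows, stood for 0.218 to 0.38 CPM in CD24Neg and 0.121 to 0.145 CPM in CD24Mid. CPM are gene-unique reads relative to library size, scaled with TMM factors. Cd24a, the gene of the sort, averaged 28.6 ± 8.37 CPM in CD24Neg and 194 ± 43.4 CPM in CD24Mid (SD, n = 4 each). The first principal component, with 84.7% of the variance, separated the groups. Mitochondrially encoded genes took 27.7% to 37.0% of reads in CD24Neg and 8.03% to 9.18% in CD24Mid. Enterocyte markers summed to 34668 to 57205 CPM in CD24Neg and 1679 to 2796 CPM in CD24Mid (12 of 12 called higher), and stem cell markers to 192 to 437.5 CPM in CD24Neg and 3353 to 4408 CPM in CD24Mid (8 of 8 called lower). Dividing-cell markers summed to 173 to 360 CPM in CD24Neg and 1400 to 2016 CPM in CD24Mid (8 of 8 lower). Goblet markers (12285 to 34626 CPM in CD24Neg, 3509 to 5445 CPM in CD24Mid, 5 of 8 higher) and T and NK lymphocyte markers (33.8 to 570.0 CPM in CD24Neg, 7.35 to 21.1 CPM in CD24Mid, 7 of 7 tested higher) also moved with the groups. Plasma and B cell markers (23.7 to 55.0 CPM in CD24Neg, 397 to 1015 CPM in CD24Mid, 4 of 6 tested lower) and enteroendocrine markers (67.1 to 108 CPM in CD24Neg, 277 to 786 CPM in CD24Mid, 6 of 8 lower) moved the other way, and the part of these cell types in the results below was not tested. CD24Mid replicates 1 and 3 resembled each other, as did replicates 5 and 7, which had the lowest chi-square per degree of freedom of any pair within a group (11.6, then 20.9 for replicates 1 and 3). CD24Neg replicates 2 and 8 were close behind at 22.2, and no fit left both out. By Pearson correlation of log2 CPM, CD24Mid replicate 3 was as close to replicate 5 (0.9845) as to replicate 1 (0.9842). Counts of members and partner genes are also given without either CD24Mid pair, as are the members and named partners whose call this changes.

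Of the 37 members, 33 had enough reads to test, and 19 rose and 6 fell in CD24Neg relative to CD24Mid in edgeR's quasi-likelihood test (Benjamini-Hochberg adjusted p under 0.05 over 12840 genes). Among all genes tested 34.3% were called higher and 35.5% lower, 69.8% in either direction, so most of the transcriptome differed. Changes above 2-fold were called higher for 14 members and lower for 5, against 18.3% and 20.4% of all genes. The ranges of the 2 groups did not overlap for 24 of the 33, against 64.4% of all genes. The median log2 fold change of the members was 0.73, against -0.015 over all genes tested. The 19 rises and 6 falls became 19 and 5 without CD24Mid replicates 1 and 3, and 19 and 6 without replicates 5 and 7, choices made after the data were seen. Unscaled library totals, which move the median of all genes to -0.96, gave 10 higher and 14 lower. In these bulk samples fewer cells of a type and less RNA per cell cannot be told apart.

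**Figure D1:**
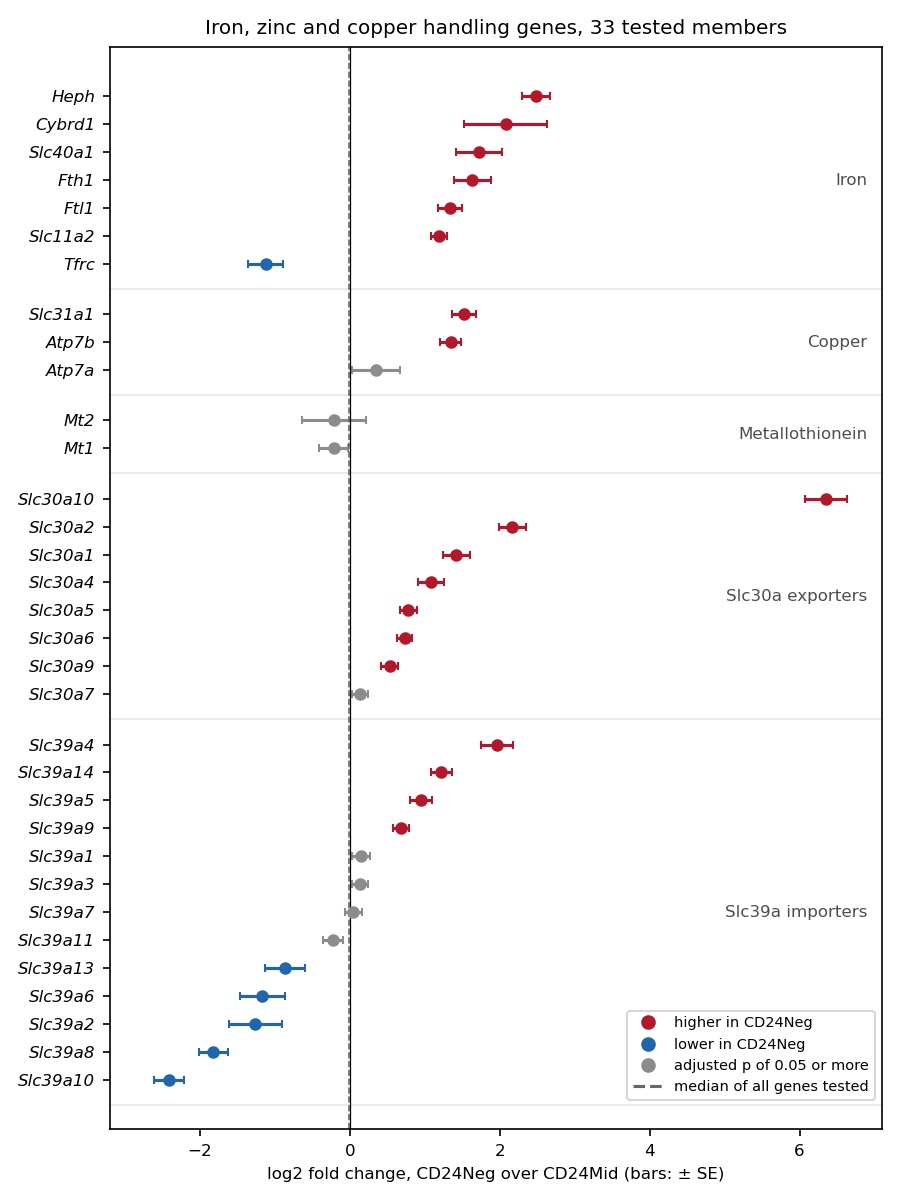
The log2 fold change, CD24Neg over CD24Mid, is on the x axis for each of the 33 tested members, grouped by metal and family, with bars of 1 SE; red points were called higher in CD24Neg, blue points lower and grey points neither. Slc30a10 lies furthest right at 6.35 and Slc39a10 furthest left at -2.41; with unscaled totals the points of Slc30a5, Slc30a6, Slc30a9, Slc39a9 and of Atp7a, Slc30a7, Slc39a1, Slc39a3 and Slc39a7, which were not called, lie below 0.

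All 7 iron genes were called, 6 higher and Tfrc lower in CD24Neg, where 34.3% of all genes were called higher and 35.5% lower. On a length-corrected scale, estimated CPM per kb with shared reads included, the order in CD24Neg was Fth1 (6447 ± 1669), Ftl1 (1151 ± 217), Heph (67.4 ± 15.5), Tfrc (49.8 ± 10.8), Slc11a2 (39.1 ± 3.87), Slc40a1 (34.8 ± 12.3) and Cybrd1 (0.927 ± 0.859) (SD, n = 4). Heph and Tfrc, Tfrc and Slc11a2, and Slc11a2 and Slc40a1 lay within their SDs of each other. In CD24Mid the order was Fth1 (2105 ± 560), Ftl1 (479.5 ± 81.2), Tfrc (111 ± 31.6), Slc11a2 (18.9 ± 1.07), Heph (12.4 ± 2.37), Slc40a1 (10.7 ± 4.42) and Cybrd1 (0.217 ± 0.0209) (SD, n = 4). Heph and Slc40a1 lay within their SDs of each other there. Tfrc stood ahead of Slc11a2, Heph and Slc40a1 in CD24Mid, beyond their SDs, and not in CD24Neg.

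**Figure D2:**
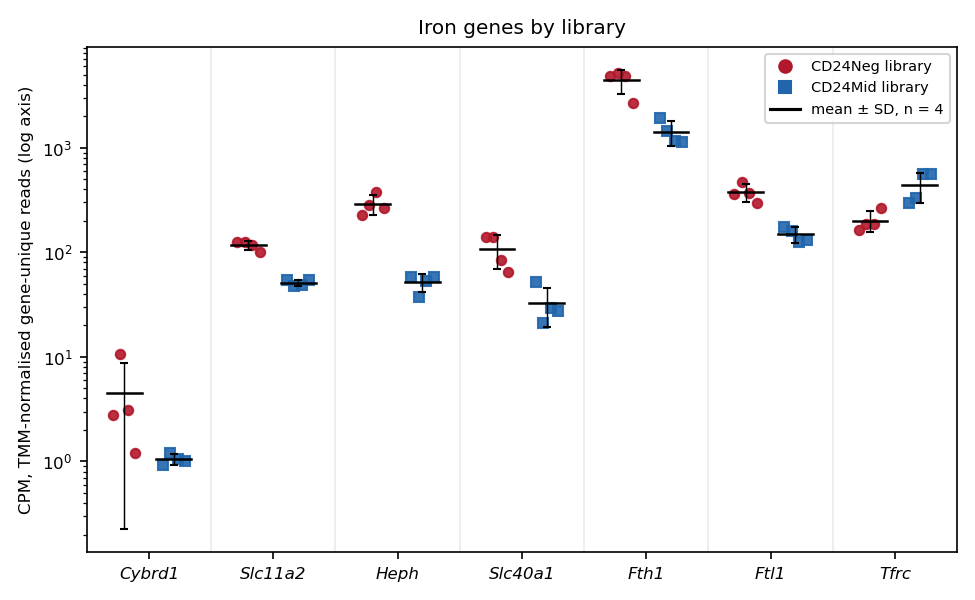
CPM of the 7 iron genes in each library on a log axis, with CD24Neg as red circles to the left of CD24Mid as blue squares, and bars for the mean ± SD of 4 libraries. Groups do not overlap for any of the 7, where 64.4% of all genes tested do not overlap. Cybrd1 in CD24Neg replicate 8 (1.21 CPM) lies level with CD24Mid replicate 3 (1.21 CPM). The CD24Mid squares of Tfrc fall into a lower and a higher pair.

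Slc11a2 encodes the brush border ferrous iron carrier Dmt1. It had 125, 127, 118 and 101 CPM in CD24Neg libraries, against 54.3, 48.0, 48.8 and 54.4 CPM in CD24Mid libraries, a 2.29-fold rise (log2 1.19 ± 0.11 SE, edgeR adjusted p = 2.57e-06). Every CD24Neg library was above every CD24Mid library, and values within a group varied little. With unscaled totals the log2 fold change was 0.25 (adjusted p = 0.051).

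Cybrd1, the brush border ferric reductase, was scarce. It had 2.79, 10.8, 3.12 and 1.21 CPM in CD24Neg libraries, from 22, 93, 43 and 11 reads, against 0.921, 1.21, 1.05 and 1.01 CPM in CD24Mid libraries. The increase of 4.23-fold (log2 2.08 ± 0.55, edgeR adjusted p = 0.0059) rested largely on CD24Neg replicate 4, without which log2 was 1.14 (adjusted p = 0.014), and the call was lost without CD24Mid replicates 5 and 7 (adjusted p = 0.057) and with unscaled totals (adjusted p = 0.080). Cybrd1 is best known from the duodenum, and markers of the proximal small intestine summed to 4941, 7126, 7839 and 4701 CPM across the CD24Neg libraries, against 690, 536, 669 and 498 CPM across the CD24Mid ones, while markers of the distal small intestine summed to 2171, 1969, 1593 and 2719 CPM across the CD24Neg libraries, against 273, 153, 153 and 168 CPM across the CD24Mid ones. Markers of both ends were present in both groups, and both sums were higher in CD24Neg. Of the proximal markers 4 of 7 tested were called higher, and of the distal markers 6 of 6 tested, with none called lower. Fabp1 and Lct are in both the proximal and the enterocyte list, so those sums share genes. The part of gut position in these values was not tested.

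Both genes of basolateral iron release rose. Heph, the membrane-bound copper ferroxidase hephaestin, had 229, 284, 381 and 267 CPM in CD24Neg libraries, against 58.1, 37.6, 53.5 and 58.2 CPM in CD24Mid libraries, and showed the largest rise of the iron genes at 5.60-fold (log2 2.49 ± 0.19, edgeR adjusted p = 9.83e-07). Slc40a1, the only known cellular iron exporter, ferroportin, had 139, 140, 84.0 and 64.8 CPM in CD24Neg libraries, against 51.6, 21.2, 29.5 and 27.3 CPM in CD24Mid libraries, a 3.30-fold rise (log2 1.72 ± 0.31, adjusted p = 0.000496). Slc40a1 varied by more than 2-fold within each group, and the lowest CD24Neg library was only a little above the highest CD24Mid library, CD24Mid replicate 1. Macrophages, which the CD45 gate should remove, also express Slc40a1. The 8 myeloid markers summed to 14.6 to 33.3 CPM in CD24Neg and 21.7 to 39.2 CPM in CD24Mid, with 1 of the 5 tested called higher and 2 lower, and their part in the Slc40a1 result was not tested.

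Ferritin stores iron in a shell of heavy and light chains, and both chains rose. The heavy chain Fth1 had 4872, 5191, 4840 and 2706 CPM in CD24Neg libraries, against 1927, 1460, 1153 and 1130 CPM in CD24Mid libraries, 3.11-fold higher (log2 1.63 ± 0.25, edgeR adjusted p = 0.000152). CD24Neg replicate 8 lay well below its group but above all CD24Mid libraries. The light chain Ftl1 had 365, 469, 369 and 295 CPM in CD24Neg libraries, against 176, 161, 124 and 131 CPM in CD24Mid libraries, 2.53-fold higher (log2 1.34 ± 0.17, adjusted p = 3.17e-05). Ftl1 has near-identical copies in the genome and its estimated reads, shared ones included, were 2.39 times its unique reads, so its level is uncertain. The ratio of Fth1 to Ftl1 unique reads within a library, which no scaling touches, was 11.7 ± 1.96 in CD24Neg and 9.47 ± 1.002 in CD24Mid (SD, n = 4 each). The difference on the log2 scale was 0.29 and did not pass a two-sided exact permutation test (p = 0.0857, adjusted over the 2 ratios examined 0.171, where 70 splits allow no p under 0.0286). With shared reads included, the mean ratio was lower, at 4.93 in CD24Neg and 3.83 in CD24Mid.

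Tfrc, the transferrin receptor that brings plasma iron into dividing cells, moved against the other iron genes. It fell to 165, 184, 186 and 267 CPM in CD24Neg libraries, against 298.5, 328, 559 and 559 CPM in CD24Mid libraries, and was 2.18-fold lower (log2 -1.12 ± 0.24, edgeR adjusted p = 0.0015). The groups did not overlap, but CD24Neg replicate 8 came near to CD24Mid replicate 1, and CD24Mid replicates 5 and 7 stood well above replicates 1 and 3. Against replicates 1 and 3 alone the log2 fold change was -0.65 (adjusted p = 0.017), and against replicates 5 and 7 alone -1.48 (adjusted p = 0.000176). Summed dividing-cell markers were 173, 291, 223 and 360 CPM across the CD24Neg libraries, against 1400, 1744, 1903 and 2016 CPM across the CD24Mid ones, and their part in the Tfrc result was not tested. Red cell precursors are also rich in Tfrc. Of the 8 erythroid markers 5 were matched to a gene ID, and they summed to 0.110 CPM or less in each library, with Hba-a1 and Hba-a2 at 0 reads. Of the members with a matched iron responsive element, the 3 with the element at the 5′ end had more mRNA in CD24Neg. Tfrc, with 4 matched elements at the 3′ end, had less. This split covers only the matched members and depends on the search rule. Slc11a2 and the partner gene Epas1, which both rose, had no match, and the search does not settle whether they carry an element. Elements that the search missed, in members that rose or fell, could change the split.

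The genes around metal handling were mixed. Of 67 listed partner genes 52 were tested, and 24 rose and 12 fell in CD24Neg, with a median log2 fold change of 0.28, where 34.3% of all genes were called higher and 35.5% lower. The 12 falls were all among the iron partners, of which 39 of 49 were tested and 16 rose. Without CD24Mid replicates 1 and 3 the partner counts were 25 higher and 7 lower, and without replicates 5 and 7 they were 24 and 13. Aco1, which serves as iron regulatory protein 1 when it has lost its iron-sulphur cluster, had 336, 413, 420 and 305 CPM in CD24Neg libraries, against 168, 159, 144 and 141 CPM in CD24Mid libraries, 2.41-fold higher (log2 1.27 ± 0.13, edgeR adjusted p = 8.84e-06). Ireb2, iron regulatory protein 2, had 82.7, 122, 128 and 99.0 CPM in CD24Neg libraries, against 65.0, 76.7, 105 and 103 CPM in CD24Mid libraries. Its groups overlapped and it was not called (log2 0.31 ± 0.18, adjusted p = 0.158), while without CD24Mid replicates 5 and 7 it was (log2 0.60, adjusted p = 0.023) and with unscaled totals it was called lower (log2 -0.64). Fbxl5, the iron-sensing ubiquitin ligase subunit that removes iron regulatory proteins, rose 2.49-fold, and Ncoa4, which carries ferritin to autophagy, rose 2.53-fold. Epas1, the hypoxia-inducible factor 2 alpha that activates intestinal iron uptake genes, rose 2.62-fold, with 40.8, 52.4, 57.5 and 27.2 CPM in CD24Neg libraries, against 21.3, 16.1, 19.3 and 11.5 CPM in CD24Mid libraries. Under unscaled totals Fbxl5, Ncoa4 and Epas1 kept a positive log2 fold change (0.38, 0.41 and 0.46) without passing the threshold.

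Among iron partners whose log2 CPM averaged 3 or more, Egln3 had the largest rise. It encodes a prolyl hydroxylase of hypoxia-inducible factors and had 20.1, 35.8, 25.6 and 22.3 CPM in CD24Neg libraries, against 1.36, 0.744, 0.753 and 0.764 CPM in CD24Mid libraries (28.7-fold, edgeR adjusted p = 1.59e-07). Slc46a1, the proton-coupled folate transporter first described as a haem carrier, rose 25.9-fold with 140, 279, 248 and 105 CPM in CD24Neg libraries, against 10.8, 6.70, 6.36 and 6.11 CPM in CD24Mid libraries. Flvcr1, first described as a haem exporter, rose 9.72-fold. Mon1a, a vesicle trafficking protein, rose 4.70-fold, the efflux pump Abcg2 3.28-fold, and the mitochondrial iron importer mitoferrin 1, Slc25a37, 2.86-fold. Large falls were seen in the metalloreductases Steap2 (5.38-fold lower) and Steap3 (2.97-fold lower), and in Slc48a1, which moves haem out of endosomes and lysosomes (2.26-fold lower). Pcbp2, an RNA-binding protein and iron chaperone, was 1.57-fold lower, its relative Pcbp1 1.26-fold lower (adjusted p = 0.017) and Bola2, which works with glutaredoxin in cluster delivery, 1.56-fold lower. Leaving out CD24Mid replicates 1 and 3 ended the calls of Pcbp1 (adjusted p = 0.096) and Bola2 (adjusted p = 0.135). Hfe, the haemochromatosis protein, averaged a log2 fold change of -0.46 ± 0.21 and was not called (adjusted p = 0.069). It was called lower under upper-quartile factors (adjusted p = 0.013), unscaled totals (adjusted p = 8.94e-05) and no filter (adjusted p = 0.048), and when CD24Neg replicate 4 (adjusted p = 0.027), CD24Mid replicate 5 (adjusted p = 0.049) or CD24Mid replicates 5 and 7 (log2 -0.70, adjusted p = 0.031) were left out. Tfr2, the second transferrin receptor, had 9 reads in CD24Neg and 26 in CD24Mid, and haem oxygenase Hmox1 had 14 in CD24Neg and 18 in CD24Mid, too few to test.

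Copper genes rose where they were called. Slc31a1, the high-affinity copper importer Ctr1, had 286, 359, 459 and 269 CPM in CD24Neg libraries, against 122, 121, 114 and 120 CPM in CD24Mid libraries, 2.88-fold higher (log2 1.53 ± 0.16, edgeR adjusted p = 1.05e-05). Its CD24Mid values were nearly level, while those of CD24Neg spread widely above them. Atp7b, the copper-pumping ATPase mutated in human Wilson disease, had 54.0, 58.9, 63.0 and 46.6 CPM in CD24Neg libraries, against 25.2, 17.1, 21.9 and 23.3 CPM in CD24Mid libraries, 2.55-fold higher (log2 1.35 ± 0.14, adjusted p = 9.0e-06). Its relative Atp7a, the ATPase that exports copper from enterocytes and is mutated in human Menkes disease, had 8.49, 14.8, 16.3 and 13.4 CPM in CD24Neg libraries, against 6.06, 6.51, 14.1 and 15.1 CPM in CD24Mid libraries. The groups overlapped and Atp7a was not called (log2 0.35 ± 0.32, adjusted p = 0.347). Here too CD24Mid fell into pairs: Atp7a was called higher in CD24Neg against replicates 1 and 3 alone (log2 1.07, adjusted p = 0.0069) and had a log2 fold change of -0.13 against replicates 5 and 7 alone. Per kb, Atp7b was the more abundant ATPase in CD24Neg (9.22 ± 1.197 estimated CPM per kb, against 3.05 ± 0.787 for Atp7a), and the 2 lay closer in CD24Mid (3.66 ± 0.594 and 2.39 ± 1.06) (SD, n = 4).

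Of the 12 listed copper partners 10 were tested, and 6 rose and none fell, against 34.3% and 35.5% of all genes (median log2 0.52, all 12840 genes -0.015). Atox1, the chaperone that hands copper to both ATPases, had 70.7, 68.2, 64.7 and 60.4 CPM in CD24Neg libraries, against 34.6, 33.5, 23.5 and 24.4 CPM in CD24Mid libraries, 2.28-fold higher (edgeR adjusted p = 2.46e-05; log2 0.25, adjusted p = 0.102, with unscaled totals). Ccs, the chaperone that loads superoxide dismutase 1, was 1.59-fold higher (adjusted p = 0.0058). Its call was lost without CD24Mid replicates 5 and 7 (log2 0.43, adjusted p = 0.058), and its log2 fold change was -0.27 under unscaled totals.

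**Figure D3:**
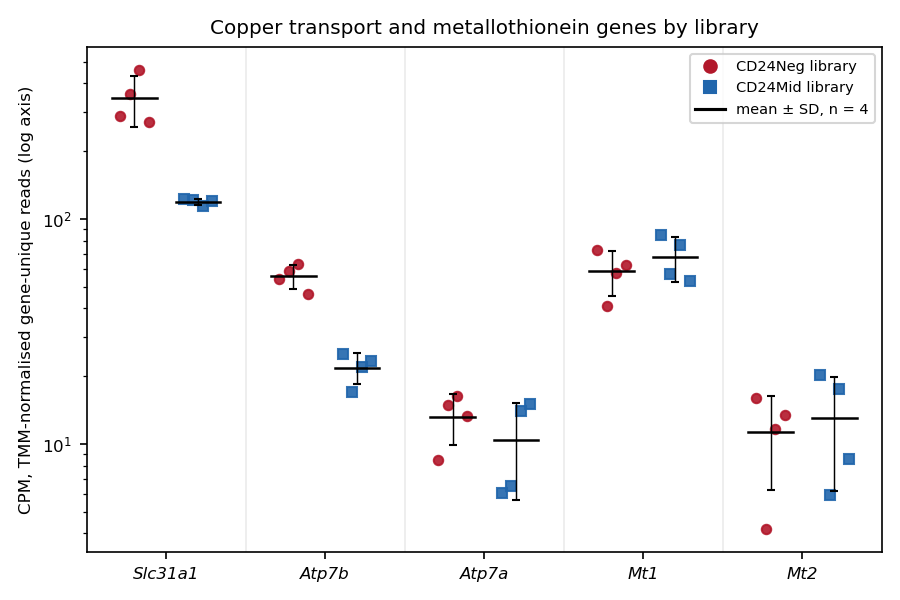
CPM of the copper transport genes Slc31a1, Atp7b and Atp7a and of the metallothioneins Mt1 and Mt2 in each library on a log axis, CD24Neg as red circles and CD24Mid as blue squares, with bars for the mean ± SD of 4 libraries. Slc31a1 and Atp7b do not overlap between groups, where 64.4% of all genes tested do not. Atp7a, Mt1 and Mt2 overlap, and Atp7a shows a low and a high pair of CD24Mid libraries.

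The metallothioneins, small cysteine-rich proteins that bind zinc and copper, were not called in either direction. Mt1 had 73.0, 41.2, 57.5 and 62.4 CPM in CD24Neg libraries, against 84.6, 57.1, 76.3 and 52.8 CPM in CD24Mid libraries (log2 -0.21 ± 0.19, edgeR adjusted p = 0.349). Mt2 had 16.0, 4.17, 11.6 and 13.5 CPM in CD24Neg libraries, against 20.2, 5.90, 17.5 and 8.61 CPM in CD24Mid libraries (log2 -0.21 ± 0.43, adjusted p = 0.681). The groups overlapped for both. The estimate plus and minus 2 SE ran from -0.60 to 0.18 for Mt1 and from -1.07 to 0.65 for Mt2. A fall of about 2-fold in Mt2, or a smaller rise, could not be told from no change. Mt2 was lowest in CD24Neg replicate 4 and CD24Mid replicate 3, the libraries with the highest ratio of Mt1 to Mt2 reads in their groups (9.89 and 9.67). That ratio averaged 6.01 ± 2.59 in CD24Neg and 6.09 ± 2.55 in CD24Mid (SD, n = 4 each), a log2 difference of -0.016 (two-sided exact permutation test, p = 1). With unscaled totals both genes were called lower (log2 -1.16 each), close to the shift of the median gene under that scaling. The relatives Mt3 and Mt4 had 1 and 0 reads in CD24Neg and 14 and 3 reads in CD24Mid.

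Mtf1, the zinc-sensing factor that drives metallothionein genes and Slc30a1, had 39.6, 35.3, 54.7 and 51.1 CPM in CD24Neg libraries, against 19.2, 17.9, 22.6 and 21.8 CPM in CD24Mid libraries, 2.22-fold higher (log2 1.15 ± 0.15, edgeR adjusted p = 5.34e-05; log2 0.20, adjusted p = 0.242, with unscaled totals). Of the other 5 listed zinc partners 2 were tested. The zinc-sensing receptor Gpr39, named after its value was seen, rose 2.59-fold (adjusted p = 2.3e-05), and Zfp658 was not called (log2 -0.59 ± 0.34, adjusted p = 0.143). The factor's binding letters, the metal response element, were searched as TGCACNC and TGCGCNC on both strands from 250 bases before to 50 bases after each RefSeq gene start of GRCm38.p6, with 36 promoters matched for 29 members. A match was found in 17 of these, while 25.7% of all 32851 promoters held at least 1, 7.11% at least 2, 1.97% at least 3 and 0.518% at least 4. Promoters of the metallothioneins, which were not called, and of Slc30a1 and Slc30a10, which rose, are shown 5′ to 3′ on the + strand, with matches on either strand in capitals.
Mt1, chr8:94178839-94179138: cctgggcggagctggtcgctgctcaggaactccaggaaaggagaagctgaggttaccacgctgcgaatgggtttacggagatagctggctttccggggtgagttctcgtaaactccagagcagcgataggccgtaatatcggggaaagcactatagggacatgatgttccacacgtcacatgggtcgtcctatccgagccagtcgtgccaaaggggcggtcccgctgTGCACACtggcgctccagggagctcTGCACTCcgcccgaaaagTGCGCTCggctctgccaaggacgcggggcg
Mt2, chr8:94172368-94172667: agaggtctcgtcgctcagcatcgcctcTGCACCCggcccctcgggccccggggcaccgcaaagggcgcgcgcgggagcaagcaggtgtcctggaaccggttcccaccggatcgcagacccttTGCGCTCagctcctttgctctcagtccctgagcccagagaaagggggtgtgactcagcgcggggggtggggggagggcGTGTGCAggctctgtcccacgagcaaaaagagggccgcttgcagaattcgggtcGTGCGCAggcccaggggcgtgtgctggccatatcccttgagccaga
Slc30a1, chr1:191906531-191906830: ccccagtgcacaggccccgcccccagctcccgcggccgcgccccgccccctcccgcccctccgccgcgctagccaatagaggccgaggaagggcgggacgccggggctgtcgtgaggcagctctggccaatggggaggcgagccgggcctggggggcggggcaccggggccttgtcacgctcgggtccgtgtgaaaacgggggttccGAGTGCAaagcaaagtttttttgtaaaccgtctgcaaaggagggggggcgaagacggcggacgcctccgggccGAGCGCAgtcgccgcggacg
Slc30a10, chr1:185454598-185454897: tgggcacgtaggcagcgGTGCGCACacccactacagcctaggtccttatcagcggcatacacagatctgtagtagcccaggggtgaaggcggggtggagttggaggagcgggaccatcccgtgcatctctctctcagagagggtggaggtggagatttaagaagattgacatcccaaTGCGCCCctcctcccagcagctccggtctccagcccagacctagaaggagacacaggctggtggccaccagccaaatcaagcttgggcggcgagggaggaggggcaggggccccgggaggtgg
Mt1 held 3 matches, first bases at -23, 3 and 21 from the RefSeq gene start, and Mt2 held 4. Matches outside the window were not counted. Slc30a1 held 2, at -43 and 31, and Slc30a10 held 3, of which those at -233 and -232 overlap on opposite strands. Slc30a4 also held 3, and Slc30a2, Atp7a and 1 of the 2 Tfrc promoters held 2 each, so promoters with several matches belonged to genes that rose, fell or were not called.

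In the Slc30a family, which lowers cytosolic zinc, 7 of the 8 tested genes rose in CD24Neg and none fell (34.3% and 35.5% over all genes), though with unscaled totals the log2 fold changes of Slc30a5, Slc30a6 and Slc30a9 were -0.16, -0.21 and -0.41. Slc30a10, best known in humans as a manganese exporter of the plasma membrane, had the largest change of all members. It had 125, 119, 122 and 86.9 CPM in CD24Neg libraries, against 2.47, 0.93, 0.92 and 1.25 CPM in CD24Mid libraries, 81.9-fold higher (log2 6.35 ± 0.28, edgeR adjusted p = 9.59e-08). The lowest CD24Neg library lay far above the highest CD24Mid library, and only 40 of the 12840 genes tested had a larger fold in that direction. Per kb it moved to 21.7 ± 3.50 estimated CPM per kb in CD24Neg, near Slc30a2, Slc30a4 and Slc30a9, against 0.271 ± 0.147 in CD24Mid, the lowest of the 8 there (SD, n = 4).

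Slc30a2, which loads zinc into vesicles, had 65.7, 62.0, 87.4 and 65.5 CPM in CD24Neg libraries, against 20.9, 15.9, 11.9 and 13.9 CPM in CD24Mid libraries, 4.495-fold higher (log2 2.17 ± 0.18, edgeR adjusted p = 1.8e-06). Paneth cells are known for this vesicular transporter, and the Paneth markers summed to 79.9 to 287 CPM in CD24Neg and 97.2 to 231 CPM in CD24Mid, with 1 of the 7 tested called lower and none higher, and their part in the Slc30a2 result was not tested. Slc30a1, the plasma membrane zinc exporter, had 61.4, 49.4, 62.2 and 62.5 CPM in CD24Neg libraries, against 26.6, 14.97, 20.1 and 26.3 CPM in CD24Mid libraries, 2.68-fold higher (log2 1.42 ± 0.18, adjusted p = 3.37e-05). Slc30a4, an endosomal and lysosomal zinc transporter, had 104, 139, 169 and 121 CPM in CD24Neg libraries, against 51.2, 56.1, 72.9 and 71.4 CPM in CD24Mid libraries, 2.12-fold higher (log2 1.08 ± 0.17, adjusted p = 0.000176), and lost its call with unscaled totals (log2 0.14, adjusted p = 0.494). None of the 3 overlapped between groups, where 64.4% of all genes tested did not overlap.

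The remaining Slc30a genes changed less. Slc30a5 and Slc30a6, which work as a pair in the early secretory pathway, were 1.72-fold and 1.66-fold higher, with ranges of 116 to 146 CPM in CD24Neg and 65.6 to 80.0 CPM in CD24Mid for Slc30a5, and of 29.6 to 33.1 CPM in CD24Neg and 17.9 to 20.1 CPM in CD24Mid for Slc30a6. Slc30a9, a mitochondrial zinc transporter, was 1.45-fold higher (edgeR adjusted p = 0.0019). Slc30a7, of the Golgi, ranged from 45.2 to 54.5 CPM in CD24Neg and from 39.7 to 52.3 CPM in CD24Mid and was not called (log2 0.14 ± 0.11, adjusted p = 0.293; -0.088 with upper-quartile factors and -0.80 with unscaled totals). Slc30a3, the synaptic vesicle transporter, had no read in CD24Neg and 4, 9, 5 and 2 reads in CD24Mid, at least 2.89-fold lower in CD24Neg when CD24Neg is put at the floor of 3 reads over the group. Slc30a8, the transporter of insulin granules, had no read in any library.

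**Figure D4:**
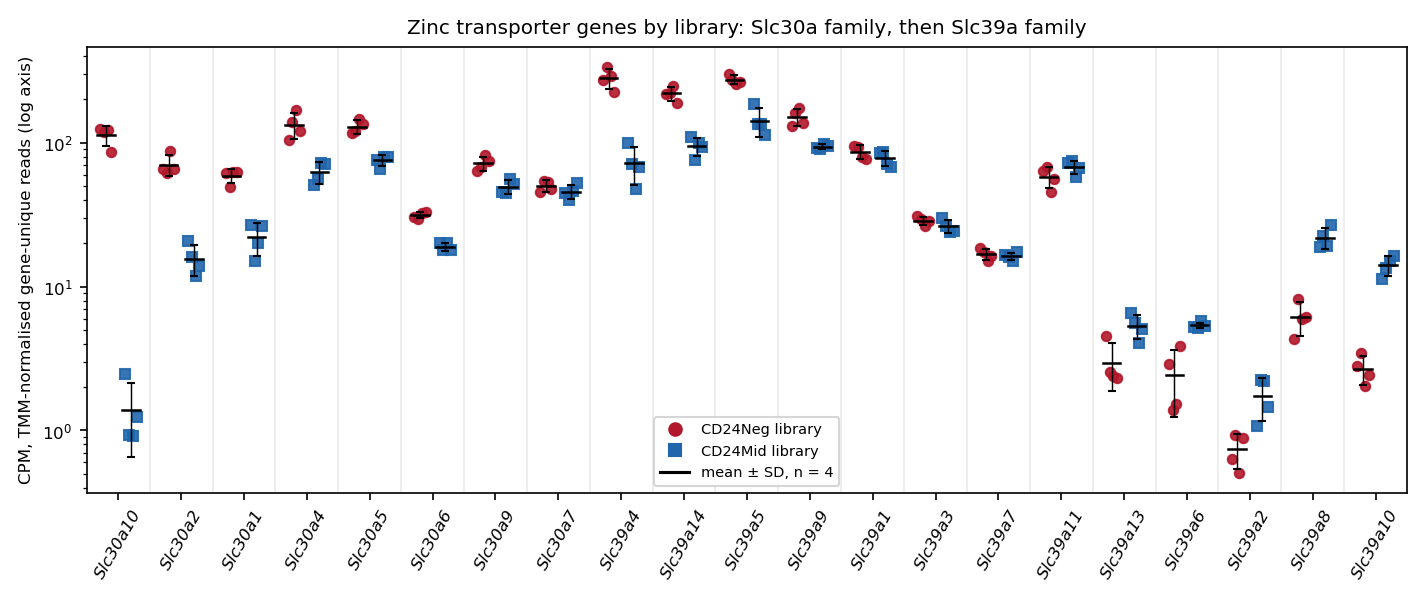
CPM of the 8 tested Slc30a genes and the 13 tested Slc39a genes in each library on a log axis, CD24Neg as red circles to the left of CD24Mid as blue squares, with bars for the mean ± SD of 4 libraries. Slc30a10 shows the widest gap, and in the Slc39a family the abundant genes Slc39a4, Slc39a14 and Slc39a5 are higher in CD24Neg while Slc39a8 and Slc39a10 are higher in CD24Mid; with unscaled totals Slc30a5, Slc30a6, Slc30a7, Slc30a9, Slc39a1, Slc39a3, Slc39a7 and Slc39a9 turn to negative log2 fold changes.

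The Slc39a family, which brings zinc into the cytosol, had 13 tested genes, of which 4 rose, 5 fell and 4 were not called, with Slc39a9 turning to -0.26 under unscaled totals. These counts are close to the shares over all genes (34.3% higher, 35.5% lower), and the median log2 fold change was 0.049, against -0.015 over all genes. Slc39a4, the brush border zinc importer whose loss causes acrodermatitis enteropathica in humans, had 272, 335, 289 and 224 CPM in CD24Neg libraries, against 99.5, 71.5, 47.9 and 68.2 CPM in CD24Mid libraries, 3.90-fold higher (log2 1.96 ± 0.21, edgeR adjusted p = 1.02e-05). Slc39a14, which carries iron and manganese as well as zinc, had 220, 223, 249.2 and 189 CPM in CD24Neg libraries, against 109, 75.7, 99.3 and 93.2 CPM in CD24Mid libraries, 2.34-fold higher (log2 1.22 ± 0.13, adjusted p = 1.27e-05). Slc39a5, the basolateral zinc importer, had 301, 274, 256 and 265 CPM in CD24Neg libraries, against 187, 134, 134 and 112 CPM in CD24Mid libraries, 1.93-fold higher (log2 0.95 ± 0.15, adjusted p = 0.000204). Groups stood apart for all 3, where 64.4% of all genes tested did not overlap. With unscaled totals Slc39a14 (log2 0.28, adjusted p = 0.073) and Slc39a5 (log2 0.013, adjusted p = 0.932) lost their calls. Slc39a9, found in the secretory pathway, ranged from 131 to 174 CPM in CD24Neg and from 90.1 to 98.5 CPM in CD24Mid, 1.60-fold higher (log2 0.68 ± 0.11).

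The 5 genes that fell were all low in CD24Neg, at 8.22 CPM or less in each library, whereas the 4 that rose had at least 131 CPM. The CD24Neg level also entered the calls, so part of this contrast follows from the split. In CD24Mid the gap was smaller, with 26.7 CPM or less for the 5 and at least 47.9 CPM for the 4. Slc39a10, a plasma membrane zinc importer, fell to 2.79, 3.47, 2.03 and 2.43 CPM in CD24Neg libraries, against 11.3, 13.5, 15.1 and 16.3 CPM in CD24Mid libraries, 5.31-fold lower (log2 -2.41 ± 0.20, edgeR adjusted p = 1.63e-06). Slc39a8, a zinc and manganese importer, fell to 4.31, 8.22, 5.96 and 6.18 CPM in CD24Neg libraries, against 18.9, 22.6, 19.2 and 26.7 CPM in CD24Mid libraries, 3.54-fold lower (log2 -1.82 ± 0.19, adjusted p = 9.68e-06). Both showed clear gaps between the groups. Slc39a6, the close relative and partner of Slc39a10, had 2.91, 1.39, 1.53 and 3.86 CPM in CD24Neg libraries, against 5.24, 5.16, 5.73 and 5.35 CPM in CD24Mid libraries, 2.24-fold lower (log2 -1.17 ± 0.30, adjusted p = 0.0052). Slc39a2 was 2.39-fold lower on 28 reads in CD24Neg and 159 in CD24Mid (log2 -1.26 ± 0.35, adjusted p = 0.0081), and limma on the deposited estimates did not call it (adjusted p = 0.090). Slc39a13, a zinc transporter of the Golgi and vesicles, had 4.56, 2.55, 2.40 and 2.32 CPM in CD24Neg libraries, against 6.54, 5.63, 4.06 and 5.11 CPM in CD24Mid libraries. It was called 1.82-fold lower (adjusted p = 0.013), with CD24Neg replicate 2 above CD24Mid replicate 5, and not without CD24Mid replicates 1 and 3 (adjusted p = 0.118).

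The uncalled Slc39a genes lay close to 0. Slc39a1 and Slc39a3, plasma membrane zinc importers, had log2 fold changes of 0.15 ± 0.12 and 0.13 ± 0.11, which were -0.070 and -0.088 with upper-quartile factors and -0.79 and -0.81 with unscaled totals. Slc39a7, which releases zinc from the endoplasmic reticulum, had 18.6, 17.4, 14.96 and 16.3 CPM in CD24Neg libraries, against 16.6, 16.0, 14.97 and 17.3 CPM in CD24Mid libraries (log2 0.049 ± 0.11, edgeR adjusted p = 0.715). Its estimated reads were 6.97 times its unique reads, and on estimated counts its log2 fold change was 0.26 (adjusted p = 0.080), so its unique reads give a small part of its level. Slc39a11 had a log2 fold change of -0.22 ± 0.14 (adjusted p = 0.165), and was called lower with upper-quartile factors (adjusted p = 0.015) and when CD24Neg replicate 4 was left out (adjusted p = 0.035). Slc39a12 and Slc39a1-ps had no read in any library. On the estimated CPM per kb scale the 4 most abundant zinc importers in CD24Neg were Slc39a5 (161 ± 11.2), Slc39a4 (139 ± 22.1), Slc39a7 (65.6 ± 7.46) and Slc39a14 (65.4 ± 8.44). In CD24Mid the order was Slc39a5 (84.1 ± 19.1), Slc39a7 (55.1 ± 6.44), Slc39a1 (41.8 ± 4.96), Slc39a4 (36.1 ± 10.8) and Slc39a11 (30.7 ± 3.39) (SD, n = 4), and neighbours from Slc39a1 to Slc39a11 lay within their SDs, as did Slc39a5 and Slc39a4, and Slc39a7 and Slc39a14, in CD24Neg.

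**Figure D5:**
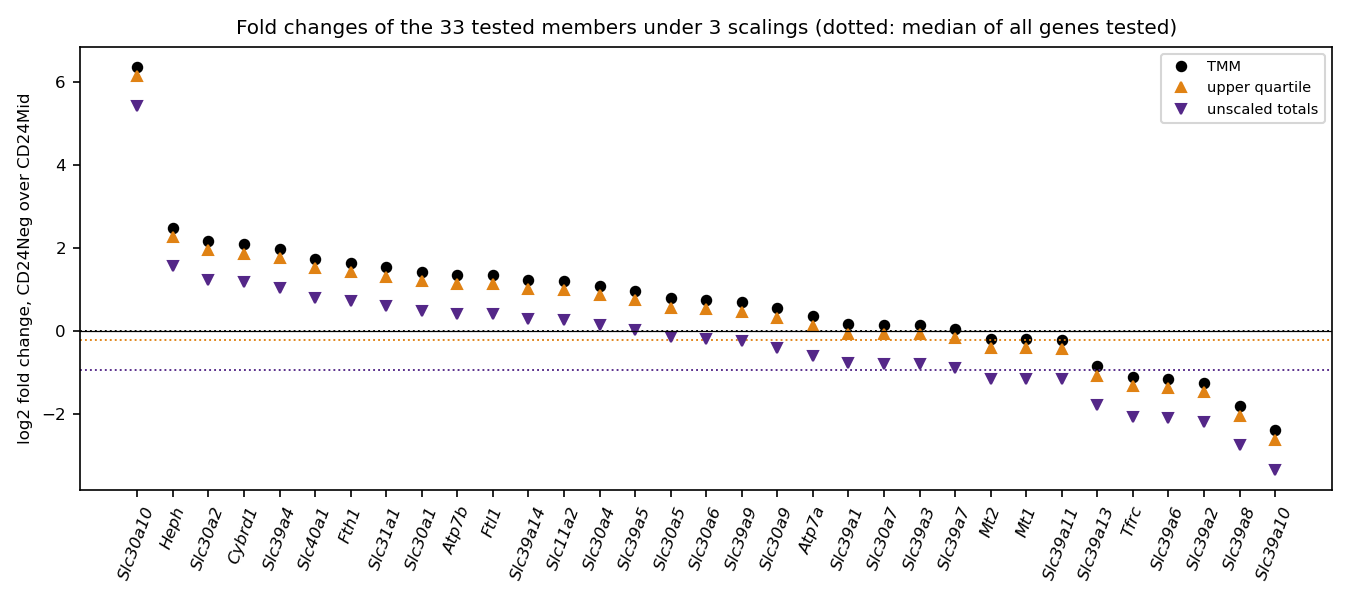
Log2 fold change, CD24Neg over CD24Mid, of the 33 tested members is shown under TMM (black), upper-quartile factors (orange) and unscaled library totals (purple). Dotted lines mark the median of all genes tested under each scaling, and that of TMM, at -0.015, lies close to the line at 0. All 33 members shift down by about the same amount, and Atp7a, Slc30a5, Slc30a6, Slc30a7, Slc30a9, Slc39a1, Slc39a3, Slc39a7 and Slc39a9 pass below 0 with unscaled totals.

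Scaling set the zero point of these comparisons. TMM factors were 0.697 to 0.757 in CD24Neg and 1.335 to 1.42 in CD24Mid. The median log2 fold change of the 12840 genes was -0.24 with upper-quartile factors and -0.96 with unscaled totals, and that of the members 0.51 and -0.21, above the median of all genes under each. Upper-quartile factors left 19 members higher and 7 lower, with 3510 genes higher and 5594 lower, against 4410 higher and 4557 lower with TMM. Leaving out mitochondrially encoded genes before scaling gave 19 higher and 6 lower members and kept each member's call and direction.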

How the data were processed

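RNA was measured in 8 libraries prepared with the TruSeq kit from total RNA of sorted cells, per the labels. Per the submitters' processing notes, Bowtie 0.12.8 and genome build NCBIM37 were used. The deposited tables give, for each gene, the count of reads unique to it, as whole numbers without normalisation by the authors. They also hold an expression estimate that includes shared reads, whose scale no label states. The values the authors deposited were read as the natural log of expression relative to effective length and mapped fragments, because this returns the unique counts, and every level per kb rests on that reading. The file layout is that of MMSEQ; its version, annotation and strand setting were not stated, so overlapping genes of opposite strand cannot be told apart. Symbols were found for 32897 gene IDs (87.45%), which held 99.32% of unique reads.

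Groups follow the labels. The test was that of edgeR 4.0.16 under R 4.3.3 (TMM, filterByExpr, robust quasi-likelihood F test, group alone, adjusted p under 0.05 over 12840 genes), after a test on simulated data. SEs were taken as the absolute log2 fold change over the square root of F. Ratios of 2 genes were compared by exact permutation in SciPy 1.17.1. Floors and read counts cover counting error only. Libraries within a group differed by more than sampling noise (lowest chi-square per degree of freedom 11.6), and none was merged. If all libraries of a group came from the same animals, the p-values measure technical spread. If each animal gave a library to both groups, the tests leave that pairing out.

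The members and all gene lists were chosen with earlier results of these data known. Every member is accounted for. Of 67 listed partner genes the text names the 6 with the largest called change in each direction at a mean log2 CPM of 3 or more, and 14 regulators and transporters fixed by name. A gene that this rule would name is not reported here. Alternatives were other scalings (RLE, upper quartile, unscaled totals, mitochondrial genes left out), no filter or 10 reads in each of 4 libraries, DESeq2 1.42.0, estimated counts rounded to whole numbers, limma 3.58.1 on the deposited estimates, and leaving out libraries. Promoters are RefSeq sequences of GRCm38.p6 and transcripts GENCODE M21, used for sequence only, and no position on NCBIM37 is given.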

Additional observations from a re-analysis of the deposited data

Results flagged for a closer look

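In 5 of the 66 groups of 4 libraries examined, 1 library lay so far from the other 3 that its gap to them exceeded the critical value of Dixon's test on the log2 scale. Chance flags about 1 group in 20. All 5 were CD24Neg libraries. Replicate 8 was low for Fth1, with 2706 CPM where the others had 4840 to 5191 CPM, and for Slc30a10, with 86.9 CPM where the others had 118.6 to 125 CPM. Replicate 4 was low for Slc30a1, with 49.4 CPM where the others had 61.4 to 62.5 CPM. Replicate 6 was high for Slc30a2, with 87.4 CPM where the others had 62.0 to 65.7 CPM. Replicate 2 was high for Slc39a13, with 4.56 CPM where the others had 2.32 to 2.55 CPM. Each of these genes kept its call when any 1 library was left out.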

How the results depend on the processing

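All 33 members kept their call and direction with RLE factors, DESeq2, estimated counts, the stricter filter and without mitochondrial genes. With unscaled totals, members called were 10 higher and 14 lower, partner genes 10 higher and 31 lower, and all genes 1659 higher and 8959 lower (4410 and 4557 with TMM). There the log2 fold change turned to -0.60 for Atp7a, -0.16 for Slc30a5, -0.21 for Slc30a6, -0.80 for Slc30a7, -0.41 for Slc30a9, -0.79 for Slc39a1, -0.81 for Slc39a3, -0.89 for Slc39a7, -0.26 for Slc39a9, -0.64 for Ireb2 and -0.27 for Ccs. Every log2 fold change falls by nearly the same amount in that setting, as the library sizes alone change. Upper-quartile factors turned Slc30a7 (-0.088), Slc39a1 (-0.070), Slc39a3 (-0.088) and Slc39a7 (-0.17), and no filter turned Slc39a7 (-0.054), none of them called. Leaving out 1 library, the log2 fold change ran from -0.45 to 0.082 for Mt2, from -0.039 to 0.079 for Slc39a7 and from -0.28 to 0.24 for the ratio of Mt1 to Mt2, and members called stayed at 19 higher and 6 to 7 lower. Without CD24Mid replicates 1 and 3, added after the data were seen, Atp7a turned to -0.13 and 7 partner genes were lower in place of 12; the cause was not tested. The alternatives for named partner genes were also added then, and 401 of their values kept call and direction, against 2 that turned, 8 that lost and 7 that gained a call. No paired analysis was run. Library numbers alternate between the groups, but no label says that neighbouring numbers share an animal or a day. Such a pairing was not tested, and the tests treat all 8 libraries as independent. Depth limits Cybrd1, Slc39a2, Tfr2, Hmox1 and Slc30a3, and shared reads limit Ftl1 and Slc39a7.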
